A study of Mus musculus with 9 samples.

Results

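This report compares microglia, the resident macrophages of the brain, from mice in which Chd8, which encodes a chromatin remodeller, was conditionally knocked out in astrocytes (cKO) and that were given lipopolysaccharide (LPS, a bacterial cell wall component) with microglia from control mice given saline. Its members are the 3 cKO LPS and the 3 control saline libraries, 6 of the 9 libraries of the series, chosen by their labels, and every gene whose mean over the 9 libraries was at least 10 normalized counts. This kept 16575 of 23134 genes. The lowest gene kept, Gm41603, had a mean of 10.01 and the highest left out, Kcnu1, a mean of 9.999. Genotype and LPS both differ between the groups, no microglia of cKO mice given saline were analysed here, and the part of each cannot be told apart within this comparison. The other 3 libraries, control mice given LPS, shared the model and are set beside it where they bear on a value.

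The study asked how an astrocyte deletion of Chd8 alters gene expression at rest and under inflammation. Mice were 2 to 3 months old. LPS was given into the peritoneum at 5 mg/kg, and tissue was taken after perfusion 72 hours (3 days) later. Cells came from dissociated cortex and hippocampus, although the tissue label names cortex alone. After myelin removal, cells bearing the astrocyte antigen ACSA-2 were taken out on magnetic beads, and cells bearing CD11b were then collected from what remained. Monocytes, neutrophils and NK cells bear CD11b too, and the sort did not remove them.

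The 3 groups were control saline, control LPS and cKO LPS, with 3 libraries each. The labels call the genotype astrocyte cKO, without the alleles, the strain or the driver of recombination. The knockout was made in astrocytes, so these cells were not its target. The titles of the cKO samples read cKO Saline, although their treatment label says LPS. In the authors' deposited comparisons they are named as LPS, which was used here. Nothing in the labels ties each library to its own mouse. The p-values therefore measure the spread between libraries, which may be technical.

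LPS binds Cd14 and the Tlr4 and Ly96 receptor complex on myeloid cells, and separate adaptor branches lead from there to NF-kB, which drives cytokine genes, and to type I interferon, which drives antiviral genes through a complex that holds Stat2 and Irf9. Resting microglia carry a set of identity genes such as P2ry12, Tmem119 and Cx3cr1. In disease and injury they lower these and raise genes of phagocytosis and lipid transport such as Apoe and Itgax, and after an inflammatory challenge they can divide.

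Reads recovered from the normalized values numbered 34356433, 25878146 and 10845937 in saline libraries 1, 2 and 3 and 33661096, 47274412 and 86571481 in cKO LPS libraries 1, 2 and 3, with 38442204 to 52373652 in control LPS. Saline libraries 2 and 3 were the shallowest of the 9, so values of genes nearly silent there are the least precise. Csf1r, the receptor on which microglia depend, was read at 313100 to 435073 normalized counts in all 9 libraries, and Cx3cr1 at 113265 to 226680. Chd8 itself was at 5041, 6596 and 4252 normalized counts in saline and 5214, 6219 and 5453 in cKO LPS (log2 fold change 0.11, adjusted p = 0.728). It was not targeted in these cells, so that value does not check the genotype. On the first principal component (46.7% of variance) the saline libraries lay at -87.0, -62.7 and -60.8 and the cKO LPS libraries at 21.5, 41.4 and 72.3, without overlap. Control LPS library 1 lay at -57.3, apart from the other 2 of its group at 78.6 and 54.0, and held 164725 normalized counts of 15 astrocyte markers against 6754 to 23386 in the other 8 libraries. Xist, transcribed from the inactive X chromosome, was read at 26508, 4.16 and 21229 normalized counts in saline and at 0, 0.815 and 57619 in cKO LPS, so the mix of sexes differed between the groups. Its part in the results was not tested.

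Of the 16575 genes, 1131 were called (6.82%), which means a limma adjusted p under 0.05 on log2(normalized counts + 1): 897 higher in cKO LPS (5.41%) and 234 lower (1.41%). "Rose" and "fell" are used only for called genes. The counts given for each list below are to be read beside these shares of all tested genes, and those of some lists lie near them. The median log2 fold change was -0.01 over all tested genes, 2.14 over the genes called higher and -0.91 over those called lower. At least 2 log2 units separated the groups for 480 of the genes that rose and 25 of those that fell, and at least 5 units for 46 and 1. In all 1131 called genes the 3 cKO LPS libraries lay wholly above or below the 3 saline libraries. In sorted bulk RNA, fewer cells of a type and less RNA per cell cannot be told apart. The groups were apart in this way for 17.9% of tested genes upwards and 13.8% downwards, called or not. The authors' deposited table for the same comparison called 2064 of 16961 genes (12.2%), 1482 higher (8.74%) and 582 lower (3.43%), and 1129 of the 1131 were among them. With 1 library left out the count was 519, 588 and 490 without cKO LPS library 1, 2 or 3, 639, 591 and 709 without saline library 1, 2 or 3, and 1656 without control LPS library 1. In the 6 libraries alone with the replicate number as a block, 2443 genes were called, 64.6% of them higher against 79.3% over all 9 libraries.

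**Figure D1:**
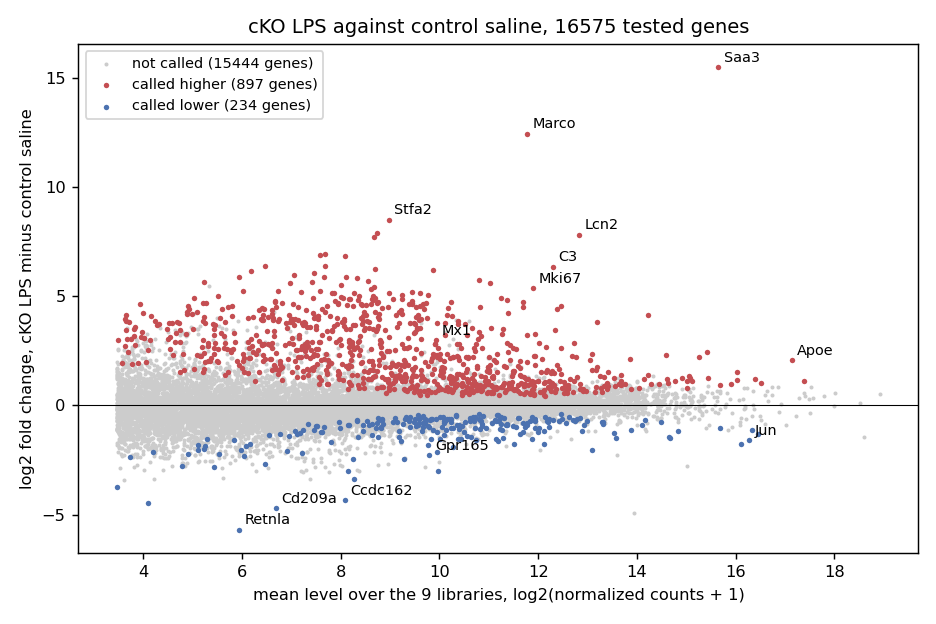
Each point is 1 of the 16575 tested genes, with its mean level over the 9 libraries (log2 of normalized counts + 1) on the horizontal axis and its log2 fold change in cKO LPS against control saline on the vertical axis; red points were called higher (897) and blue points lower (234). The rises reach 15.49 (Saa3) and the falls -5.69 (Retnla), and most called genes lie above 0.

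Among called genes with a mean of at least 50, the largest rise was that of Saa3, a serum amyloid of the acute-phase response (chromosome 7, 46711998 to 46719615, mm10). It was at 1.97, 0 and 3.21 normalized counts in saline and 92608, 72909 and 179348 in cKO LPS, with 3 reads over all saline libraries against 597607, a ratio of 90438 after scaling (exact 95% interval 30946 to 438542, counting error only). The next was Marco, a scavenger receptor that binds bacteria (chromosome 1, 120474538 to 120505024). It had no read in saline and 2783, 4461 and 13756 normalized counts in cKO LPS. From 40453 recovered reads this was at least 6122-fold higher against a floor of 3 reads over the saline group. Lcn2, which sequesters bacterial iron carriers, went from 33.6, 54.04 and 96.3 normalized counts in saline to 15019, 5463 and 25613 in cKO LPS (log2 fold change 7.81, SE 0.82, adjusted p = 0.0012). Every cKO LPS library was far above every saline library for these 3 genes. Cxcl13, the chemokine that draws B cells into follicles, had 3 saline reads against 1806, a ratio of 273 (95% interval 93.4 to 1327). On the log2 scale Saa3 was at 15.49, or 14.88 without saline library 2, Marco at 12.44, or 11.78 without cKO LPS library 3, Lcn2 at 8.43 without cKO LPS library 2 and Cxcl13 at 6.95, or 6.23 without cKO LPS library 3.

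The other 4 of the 8 largest rises were cysteine protease inhibitors of 1 stefin cluster on chromosome 16. Stfa2 and Stfa3 had no read in saline and were at least 328-fold and at least 110-fold higher in cKO LPS, at 166, 453 and 619 and 51.9, 142 and 214. Cstdc5 and Cstdc4 had 1 and 3 saline reads, giving ratios of 779 (95% interval 140 to 30789) and 186 (63.4 to 902). These genes are near-identical copies whose reads may have been split between them, and neutrophils are a known source of them. The fitted calls of Stfa3, Cstdc4 and Cstdc5 were lost without cKO LPS library 2 or 3 or saline library 2 or 3, with adjusted p of at most 0.0820, and that of Stfa3 also without saline library 1. Without cKO LPS library 1 the log2 fold change of Cstdc5 went from 7.73 to 8.40 and that of Cstdc4 from 6.83 to 7.46, and without saline library 1 Cstdc4 was at 7.50. With edgeR, Stfa2 and Stfa3 were not called, and with a pseudocount of 5 Stfa3 was not called.

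The acute-phase list as a whole had 7 of 11 tested members higher, at a median of 3.89, against 5.41% of all genes. Lrg1, a glycoprotein released in inflammation, went from 11.8, 18.01 and 19.3 normalized counts in saline to 475, 718 and 655 in cKO LPS (log2 fold change 5.16). Haptoglobin (Hp, 4.49), Slpi, a protease inhibitor (3.89), the chitinase-like Chil3 (5.75) and ceruloplasmin (Cp, 2.67), which oxidizes iron, rose too. Cp rested on cKO LPS library 3, at 18971 normalized counts against 5202 and 3712 in the other two, and its log2 fold change was 1.97 without it, not called. Its call was also lost without cKO LPS library 1, control LPS library 3 or any 1 saline library. Without cKO LPS library 3 the list count was 4.

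Of the 42 members of the type I interferon response 35 rose and none fell, at a median of 1.73. Mx1, an antiviral GTPase (chromosome 16, 97447035 to 97462906) that RefSeq lists as a transcribed pseudogene in the reference strain, was at 137, 164 and 125 normalized counts in saline and 1120.0, 1102 and 1180.4 in cKO LPS. The log2 change was 2.997 (SE 0.17, adjusted p = 0.000118), and the cKO LPS libraries lay close together. Ifit3, which restricts viral RNA, went from 392, 309 and 375 normalized counts in saline to 1562, 1579.6 and 1642 in cKO LPS. Ifit2, of the same family, was at 284, 267 and 369 normalized counts in saline and 1702, 1755 and 1722 in cKO LPS, a log2 fold change of 2.50 (adjusted p = 0.000449). All 42 members had a positive log2 fold change, from 0.26 (Slfn8) to 3.73 (Ifi27l2a). The sensor Zbp1 (3.53), the transcription factor Irf7 (2.63), the antiviral Rsad2 (2.57) and Isg15, a ubiquitin-like modifier (1.87), rose, as did Stat2 (1.02), which carries the interferon signal. The count ranged from 26 to 38 over the alternatives run.

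Of tested genes with exactly 1 promoter in the RefSeq table (9974, GRCm38.p6), 3.36% held the core of the interferon-stimulated response element (TTTC, any 2 bases, then TTTC) on either strand within 250 bases before and 50 after the start. Among genes called higher the share was 9.71% (57 of 587), among genes called lower 3.29% (5 of 152), and among the called members of the type I interferon list 72.7% (16 of 22). The NF-kB motif (GGG, any 2 bases, then TTTCC) stood in 1.61% of all these promoters, 1.70% of those called higher (10 of 587) and 1.32% of those called lower (2 of 152), and in none of the 22. The 2 motifs can overlap in their TTTC letters. A match describes letters and is not a site of binding. The 3 promoters below belong to the called list members with 1 promoter and the smallest adjusted p that hold the first motif. They are given 5′ to 3′ on the gene's strand over the 250 bases before the start site, with the motif in capitals. Ifit3 (chr19:34583279-34583528, plus strand) and Ifit3b (chr19:34607707-34607956, plus strand) hold it in 2 places each, and Oas3 (chr5:120777660-120777909, minus strand) holds it once, as the reverse complement. For Ifit3 and Ifit3b the start is that of the table's transcript, which lies inside the annotated gene.
Ifit3: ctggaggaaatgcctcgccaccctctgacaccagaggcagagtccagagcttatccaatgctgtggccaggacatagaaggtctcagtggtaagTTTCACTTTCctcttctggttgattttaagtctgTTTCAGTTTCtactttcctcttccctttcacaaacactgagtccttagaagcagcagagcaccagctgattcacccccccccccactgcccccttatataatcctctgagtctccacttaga
Oas3: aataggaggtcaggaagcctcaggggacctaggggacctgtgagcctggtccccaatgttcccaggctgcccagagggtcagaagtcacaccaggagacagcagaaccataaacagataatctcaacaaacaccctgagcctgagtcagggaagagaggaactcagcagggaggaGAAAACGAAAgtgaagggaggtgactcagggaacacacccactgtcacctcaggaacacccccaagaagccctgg
Ifit3b: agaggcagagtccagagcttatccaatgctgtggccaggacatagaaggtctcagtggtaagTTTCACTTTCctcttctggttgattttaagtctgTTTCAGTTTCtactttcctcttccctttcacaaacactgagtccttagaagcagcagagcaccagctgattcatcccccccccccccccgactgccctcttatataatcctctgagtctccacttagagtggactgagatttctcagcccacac

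Oas3, which makes the second messenger that activates RNase L, was at 20.7, 18.01 and 25.7 normalized counts in saline and 181, 287 and 283 in cKO LPS (log2 fold change 3.46, SE 0.35, adjusted p = 0.00109). Ifit3b went from 82.9, 69.3 and 112 normalized counts in saline to 361, 347 and 313 in cKO LPS (log2 fold change 1.96). Its sequence is close to that of Ifit3, so reads may have been shared between the copies.

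Genes that respond mainly to interferon gamma moved less, with 4 of 19 higher, none lower and a median of 0.36. The guanylate-binding protein Gbp6 was at 71.1, 34.6 and 25.7 normalized counts in saline and 223, 167 and 182 in cKO LPS (log2 fold change 2.22, adjusted p = 0.00828). Gbp2 (1.23), the GTPase Iigp1 (1.38) and Cd274, the checkpoint ligand PD-L1 (1.74), were the other 3. Gbp2 lost its call without cKO LPS library 1 or 2 or saline library 2 or 3, and Cd274 without any 1 of the 6 libraries compared. The count was 1 without cKO LPS library 1 or 2 or saline library 2 or 3, and 2 without cKO LPS library 3. Without control LPS library 1 or with DESeq2, 2 members were called lower, and 1 was after quantile normalization, in the 6 libraries alone or where the replicate number was a block. In MHC class I presentation 6 of 20 rose at a median of 0.60. Nlrc5, the transactivator of class I genes (chromosome 8), went from 360.3, 427 and 276 normalized counts in saline to 1565, 1590.2 and 1787 in cKO LPS (log2 fold change 2.23, adjusted p = 0.000452), and the peptide transporter Tap1 from 2156, 1980.2 and 2076 normalized counts in saline to 3899, 4295 and 4005 in cKO LPS (0.97). The class I heavy chain gene H2-T22 (1.02) rose as well. The class I count was 3 without cKO LPS library 1 and 10 in the 6 libraries alone with the block. MHC class II genes had no call in 9, at a median of -0.23, with H2-Aa at -1.55 and Cd74, the invariant chain, at -0.66 (adjusted p = 0.328). That median was 0.02 without cKO LPS library 3, and 3 class II genes were called lower without saline library 2 or with DESeq2.

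The receptors and feedback regulators of LPS signalling lay on both sides of 0, from -1.59 to 1.83 on the log2 scale. Of 24 members 3 rose and none fell, against 5.41% higher and 1.41% lower over all tested genes, with 13 positive and 11 negative. The median was 0.05, or -0.05 without saline library 3 and -0.01 after quantile normalization. Tlr4 was at -0.01 and Ly96 at 0.51, neither called. The LPS co-receptor Cd14 went from 20449.6, 19666 and 18408 normalized counts in saline to 38188, 42071 and 46126 in cKO LPS (log2 fold change 1.11, adjusted p = 0.00849). Tnip1, which restrains NF-kB, was at 1159, 1104 and 869.6 normalized counts in saline and 1814, 2070.5 and 2110.4 in cKO LPS (0.94), and Irak3, an inactive kinase that dampens Tlr signals, at 1.83. The Irak3 call was lost on leaving out any 1 of the 6 libraries compared, or control LPS library 3, with adjusted p of at most 0.138. Nfkbia, the inhibitor of NF-kB, was at -0.91 and Tnfaip3 at -0.29, neither called. In the list 2 members were called lower in the 6 libraries alone with the block, and 1 with DESeq2 or after quantile normalization.

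Inflammatory cytokine genes split in direction, with 5 of 18 higher and 1 lower at a median of 0.61. Il1b, the pro-inflammatory interleukin 1 beta, was at 12515, 9615 and 9523 normalized counts in saline and 69186, 51332 and 51936 in cKO LPS (log2 fold change 2.44, SE 0.30, adjusted p = 0.00232). Its antagonist Il1rn went from 53.3, 27.7 and 35.3 normalized counts in saline to 517, 393 and 1060.3 in cKO LPS (3.97, adjusted p = 0.00497). Both groups were apart by a wide gap for these genes. Osm, a cytokine of the interleukin 6 family (1.11), Il12b, a subunit of interleukins 12 and 23 (2.66), and Tnfsf13b, a B cell survival factor (1.14), rose too. Il6 fell, from 196, 239.7 and 160.4 normalized counts in saline to 83.2, 89.7 and 54.8 in cKO LPS (log2 fold change -1.39, adjusted p = 0.0357). Leaving out any 1 of the 6 libraries compared, or control LPS library 3, ended the Il6 call. With the replicate block, DESeq2 or quantile normalization, or without control LPS library 1, 2 of these genes were called lower. Osm lost its call without cKO LPS library 1 or 3 or saline library 2 or 3. The count of rises was 3 without cKO LPS library 1 or 2 or saline library 3, and 2 without cKO LPS library 3 or saline library 2.

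Tnf, the central cytokine of the acute LPS response (chromosome 17, 35199367 to 35202007), was at 21956, 23284 and 20854 normalized counts in saline and 12729, 12953 and 5776 in cKO LPS. All 3 cKO LPS libraries were below all 3 saline libraries, as was so for 13.8% of all tested genes. The log2 fold change of -1.16 (SE 0.33) did not pass the threshold (adjusted p = 0.0745). It passed with the replicate number as a block, over all 9 libraries or the 6 compared. It also passed with DESeq2, after quantile normalization and without control LPS library 1. Over all 19 alternatives, passed or not, the adjusted p was 0.0152 to 0.177. In control LPS the values were 16464, 32334 and 20826, spread around those of saline (log2 fold change 0.02). Directly compared, cKO LPS differed from control LPS by -1.18 (SE 0.33, adjusted p = 0.9999), or -1.40 without control LPS library 1 (adjusted p = 0.736), so a difference between the 2 groups given LPS was not detected.

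Chemokine genes rose in 4 of 20 cases at a median of 0.52, and none fell. Ccl5, which attracts T cells and monocytes (chromosome 11), was at 90.8, 48.5 and 57.8 normalized counts in saline and 2735, 3554 and 3176 in cKO LPS (log2 fold change 5.61, SE 0.38, adjusted p = 0.000331). Cxcl16, a membrane-bound chemokine and scavenger receptor, went from 3875, 3633 and 2994 normalized counts in saline to 12068, 10939 and 12632 in cKO LPS (1.77). Cxcl10, an interferon-induced chemokine, was at 1.87, and Cxcl13 is given above. The macrophage chemokines Ccl2 (0.22), Ccl3 (0.12) and Ccl4 (0.08) were not called. A chemokine gene was called lower without control LPS library 1, with DESeq2, after quantile normalization or at a mean of at least 50.

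Complement genes rose in 7 of 21 cases, with none lower and a median of 0.56. C3, the hub of the cascade (chromosome 17, 57203967 to 57228136), was at 130.3, 81.8 and 89.8 normalized counts in saline and 6679.7, 6331 and 12588 in cKO LPS, 81.4-fold higher on the fitted scale (log2 6.35, SE 0.41, adjusted p = 0.000246). Cfb, the alternative pathway protease, went from 13.8, 27.7 and 12.8 normalized counts in saline to 898, 1442 and 1798 in cKO LPS (6.20), and C4b, of the classical pathway, from 830.2, 1467 and 1819 normalized counts in saline to 21714, 25406 and 22946 in cKO LPS (4.16). In each of these 3 genes the lowest cKO LPS library was more than 10 times the highest saline library. Cfp (2.26), which stabilizes the C3 convertase, Cd55 (2.54), which dismantles it, and the receptor subunits Itgax (2.28) and Itgb2 (0.81) also rose. The 3 chains of C1q, already high in resting microglia, were at 0.29 to 0.43 and not called. The count ranged from 5 to 10 over the alternatives.

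Mitosis and spindle genes were the only one of the 39 lists in which every tested member was called: all 27 rose, at a median of 4.50, and all 27 were called under each of the 19 alternatives. The lists were chosen with earlier results of these data known, so this count is no independent test. Mki67, the proliferation antigen (chromosome 7, 135689784 to 135716450), was at 189.5, 172 and 183 normalized counts in saline and 8669.9, 4359.5 and 11225 in cKO LPS (log2 fold change 5.37, SE 0.46, adjusted p = 0.0006). The mitotic cyclin Ccnb2 went from 26.7, 30.5 and 22.5 normalized counts in saline to 1275, 590.4 and 1181 in cKO LPS (5.14), and Cenpf, of the kinetochore, from 109.6, 111 and 96.3 normalized counts in saline to 1815, 929.6 and 1654 in cKO LPS (3.73). The 3 saline libraries were nearly level for each, while cKO LPS library 2 was the lowest of its group. Summed over the list, saline libraries held 1436 to 1545 normalized counts and cKO LPS libraries 43245, 19618 and 51198. DNA replication genes rose less completely, in 8 of 28 cases at a median of 1.37, with all 28 positive. Tk1, of thymidine salvage, was at 76.01, 31.9 and 60.97 normalized counts in saline and 1185, 755 and 2332 in cKO LPS (4.57, adjusted p = 0.00211), and the ribonucleotide reductase subunit Rrm2 at 27.6, 29.1 and 41.7 normalized counts in saline and 582, 294 and 1617 in cKO LPS (4.29, or 3.64 without cKO LPS library 3). Pcna (0.26) and Mcm3 (0.45) were not called. The replication count was 3 without cKO LPS library 1 or 3 or saline library 1, and 2 without saline library 2 or 3. It was 17 with DESeq2 and 16 in the 6 libraries alone with the block. Which cells in the sort were dividing was not tested.

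**Figure D2:**
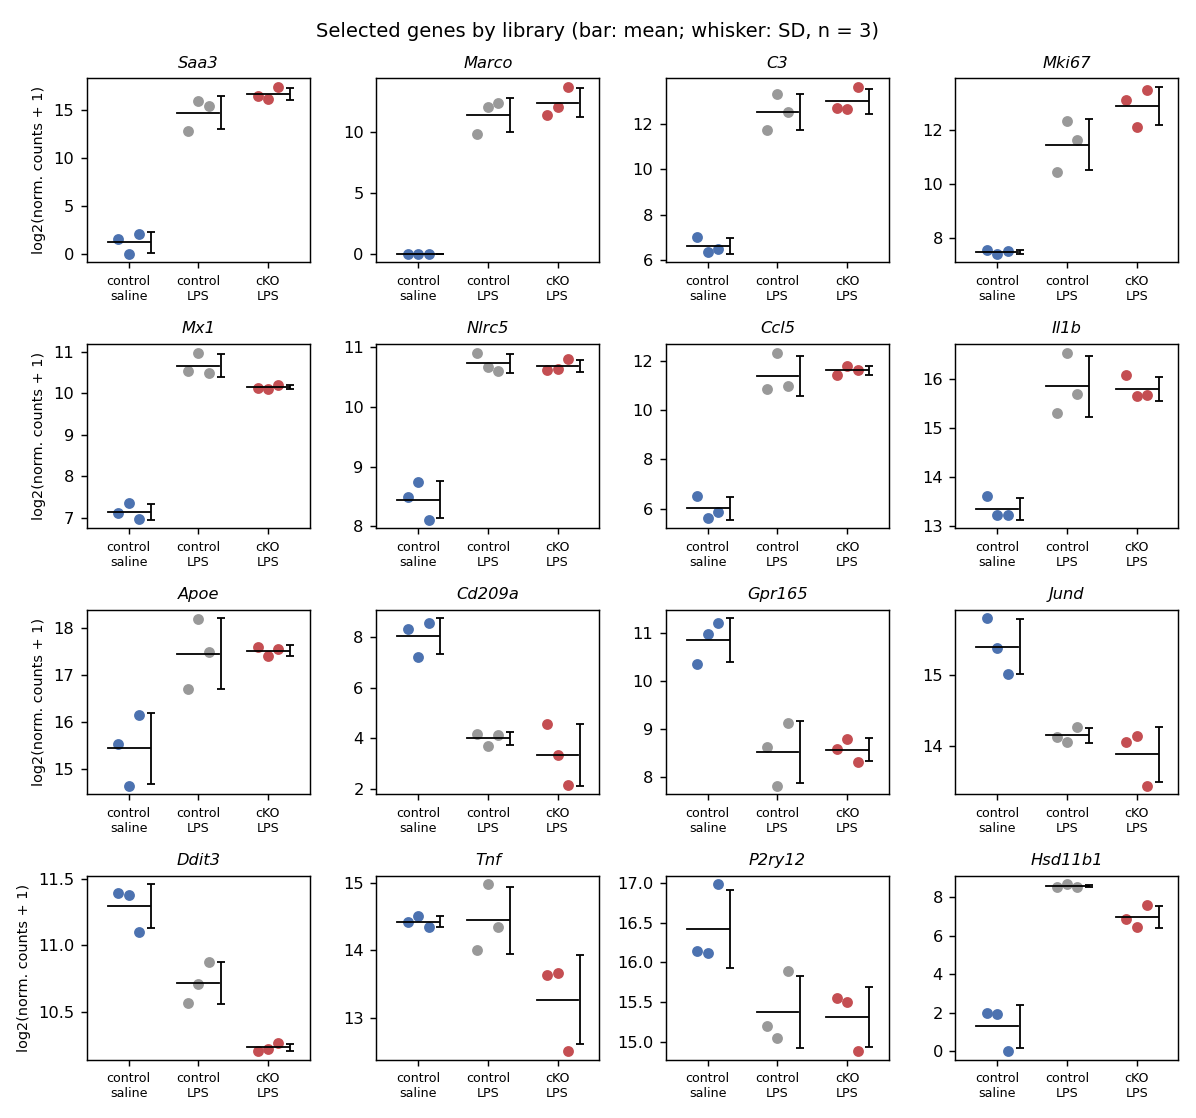
Each panel shows 1 gene with log2(normalized counts + 1) on the vertical axis and the 3 groups on the horizontal axis; points are libraries, the bar is the mean and the whisker the SD (n = 3). Rises such as Saa3, C3, Mki67 and Mx1 leave the cKO LPS and saline points far apart, Cd209a, Gpr165 and Jund lie lower in cKO LPS, and the Tnf points of cKO LPS lie below those of saline while control LPS spreads around them.

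Disease-associated microglia genes, a set defined in neurodegeneration models, rose in 14 of 27 cases at a median of 1.19, and none fell. Apoe, the lipid carrier, was at 47643, 25883 and 72892 normalized counts in saline and 198736, 171898 and 192286 in cKO LPS (log2 fold change 2.06, adjusted p = 0.0272). Lgals3bp, a secreted ligand of galectins, went from 5481, 5974 and 8176 normalized counts in saline to 29761, 32414 and 34573 in cKO LPS (2.32, adjusted p = 0.000452). Axl, a receptor for dying cells, was at 1108, 772 and 1418 normalized counts in saline and 5075, 5627 and 3635 in cKO LPS (2.14), and the integrin Itgax at 1073, 665 and 895 normalized counts in saline and 4647, 5637 and 2783 in cKO LPS (2.28). Trem2, the receptor on which the full state depends, was at 35032, 30276 and 34446 normalized counts in saline and 38212, 38724 and 25237 in cKO LPS (log2 fold change 0.01, adjusted p = 0.982), and the groups overlapped. Apoe lost its call without any 1 of cKO LPS libraries 1, 2 and 3 and saline libraries 1 and 2, with adjusted p of at most 0.0923. The list count was 5, 6 and 7 without cKO LPS library 1, 2 or 3, and 7 and 5 without saline library 1 or 2. Lysosome genes rose in 10 of 30 cases at a median of 0.58. The lysosomal galactosidase Glb1 went from 2453, 2321 and 2965 normalized counts in saline to 6158, 5654 and 4503 in cKO LPS (1.07, adjusted p = 0.00527), the protease Ctsc rose by 1.13 and the protease Ctsl by 1.53 on the log2 scale. That count was 4 without any 1 of cKO LPS libraries 1, 2 and 3 and saline libraries 1 and 2, and 17 with DESeq2.

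Genes of resting microglia were lower in 25 of 26 cases, at a median of -0.58, but only 4 fell past the threshold. Gpr165, an orphan receptor (X chromosome, 96713468 to 96719388), was at 1296, 2018 and 2368 normalized counts in saline and 382, 444 and 319.6 in cKO LPS (log2 fold change -2.28, SE 0.33, adjusted p = 0.00548). Slc2a5, a fructose transporter, went from 15042, 19222 and 21960.5 normalized counts in saline to 8723, 9862 and 5577 in cKO LPS (-1.24), and the transcription factor gene Jun from 150584, 152816 and 102779 normalized counts in saline to 49750.5, 58252 and 29741 in cKO LPS (-1.59). Slc2a5 lost its call without saline library 2 or 3, and Jun without cKO LPS library 3 or saline library 1 or 2. The purinergic receptor P2ry13 fell by 1.18 on the log2 scale. P2ry12, which senses injury, was at 72405, 71261 and 129350.0 normalized counts in saline and 47958, 46518 and 30213 in cKO LPS. At a log2 fold change of -1.10 it had adjusted p = 0.0823, with Tmem119 at -0.56 (adjusted p = 0.146) and Cx3cr1 at -0.51 (adjusted p = 0.288). The saline and cKO LPS libraries did not overlap for P2ry12 and Tmem119, as was so downwards for 13.8% of all tested genes. DESeq2 called all 3 lower and 12 of the 26 in all. The main count was 2 without cKO LPS library 3 or saline library 1 or 3, and 1 without saline library 2.

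Immediate-early genes, which respond within minutes to many stimuli, tissue dissociation among them, fell past the threshold in 7 of 23 cases and rose in 1, at a median of -0.75. Jund, an AP-1 subunit, was at 56547, 42431 and 33139.7 normalized counts in saline and 17158, 18169 and 11229 in cKO LPS (log2 fold change -1.50, adjusted p = 0.0077). Ier2 went from 24292, 20824 and 21319 normalized counts in saline to 10309, 12371 and 7944 in cKO LPS (-1.14) and Ier5 from 42962, 48009 and 33066 normalized counts in saline to 17752, 19098 and 10373 in cKO LPS (-1.43). Jun, Junb, Egr1 and Egr2 completed the falls, and the orphan nuclear receptor gene Nr4a3 rose (2.14). Fos was not called at -0.74. The Nr4a3 call was lost without cKO LPS library 1 or 3 or saline library 2 or 3. The count of falls was 4 without cKO LPS library 1, and 3 without cKO LPS library 3 or saline library 1 or 2. DESeq2 called 11 falls and the 6 libraries alone with the block 14, each with 3 rises. In the integrated stress response 2 of 18 fell and none rose, with 1 rise without cKO LPS library 2 or control LPS library 1, with the replicate block or with DESeq2. Ddit3, the pro-apoptotic factor CHOP, was at 2691, 2663 and 2198 normalized counts in saline and 1185, 1195 and 1232 in cKO LPS (log2 fold change -1.06, SE 0.13, adjusted p = 0.0021), and its inducer Atf4 at 12173, 10896 and 9998 normalized counts in saline and 5631, 5859 and 6104 in cKO LPS (-0.91). Both genes kept their call under all 19 alternatives.

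Scavenger and alternative-activation receptors moved in both directions, with 6 of 20 higher and 3 lower. Beside Marco, the mycobacterial lectin Clec4e went from 27.6, 15.2 and 25.7 normalized counts in saline to 383, 497 and 1103 in cKO LPS (4.68), and Msr1, the class A scavenger receptor, rose by 2.83. Cd209a, a C-type lectin of dendritic cells and some macrophages (chromosome 8), was at 321, 148 and 372 normalized counts in saline and 22.7, 8.97 and 3.40 in cKO LPS (log2 fold change -4.69, SE 0.62, adjusted p = 0.00341), which was -5.31 without cKO LPS library 1 and -4.09 without library 3. Mgl2, a galactose-binding lectin, went from 399, 334 and 1306 normalized counts in saline to 134, 53.8 and 43.3 in cKO LPS (-3.02), and Retnla, a secreted marker of alternative activation, from 24.7, 23.6 and 491 normalized counts in saline to 0, 0 and 1.27 in cKO LPS. Saline library 3 was the highest of its group for Mgl2 and Retnla, and their log2 fold changes were -2.41 (not called) and -4.26 without it. Retnla was at -6.39 and -6.42 without saline library 1 or 2. The Retnla call ended without any 1 cKO LPS library or at a mean of at least 50, and that of Mgl2 without cKO LPS library 2 or 3. For Retnla the authors' deposited table gives no adjusted p. Retnla had 3 reads over the cKO LPS libraries against 195, a ratio of 0.00698 (95% interval 0.00143 to 0.0207). Without cKO LPS library 1 or 2 the count of rises was 3, and without cKO LPS library 2 or 3 the count of falls was 1.

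Of the other largest falls, Ccdc162, a coiled-coil gene, was at 769, 561 and 687 normalized counts in saline and 69.2, 36.7 and 12.3 in cKO LPS (log2 fold change -4.35, or -3.70 without cKO LPS library 3, adjusted p = 0.0327). Hbegf, a growth factor of the epidermal growth factor family, went from 671, 531 and 606 normalized counts in saline to 173, 112 and 68.3 in cKO LPS (-2.44), and the proteoglycan gene Spock3 from 176, 58.2 and 122 normalized counts in saline to 24.9, 22.02 and 16.1 in cKO LPS (-2.33). Eps8l1, of actin regulation, was at 2027, 2034 and 1765 normalized counts in saline and 476, 518 and 56.9 in cKO LPS (-2.997). The cKO LPS library 3 was far below the other two, and without it the log2 fold change was -1.96, still called. Ccdc162 was called under 11 of 19 alternatives, Spock3 under 13, Eps8l1 under 14 and Hbegf under 16. Leaving out any 1 of the 6 libraries compared, or control LPS library 3, ended the Ccdc162 call. Spock3 lost its call without any 1 cKO LPS library, saline library 1 or 3 or control LPS library 3, Eps8l1 without any 1 saline library or control LPS library 3, and Hbegf without cKO LPS library 3 or saline library 1 or 3.

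Few genes of the metabolic lists passed the threshold over all 9 libraries, where 5.41% of all tested genes were called higher and 1.41% lower. Oxidative phosphorylation had no call in 40, at a median of 0.26, with the ATP synthase subunits Atp5b at 0.09 and Atp5a1 at 0.16. Without saline library 3 or control LPS library 1, with the replicate block or in the 6 libraries alone, 1 member was called higher. DESeq2 called 3, and the 6 libraries alone with the block 5. Glycolysis had 2 of 24 higher, Gpi1 (0.90) and Pfkfb3 (1.20), and 1 lower, Slc2a5. Neither rise was called without cKO LPS library 2 or 3 or saline library 2 or 3, and Pfkfb3 was lost without cKO LPS library 1 and Gpi1 without saline library 1. The Slc2a5 call was lost without saline library 2 or 3, and without control LPS library 1 the counts were 4 higher and 2 lower. In the 6 libraries alone with the block they were 5 higher and 3 lower, and 2 were lower with DESeq2 or with the block over all 9. Mvd alone was called in 22 cholesterol synthesis genes (0.82, adjusted p = 0.046), with a median of -0.01 (-0.21 to 0.19 over the alternatives), and its call was lost without any 1 of the 6 libraries compared or control LPS library 3. It was also lost with edgeR, TMM factors, quantile normalization or no filter. TGF-beta signalling had no call in 18 (median -0.16), with Tgfbr1 at -0.61 (adjusted p = 0.184). Cytosolic ribosomal protein genes were positive in 50 of 50 cases at a median of 0.67, but 2 were called, Rplp0 (1.14) and Rpsa (1.27). With the replicate number as a block 14 were called over all 9 libraries and 32 in the 6 alone, where 5 were called without the block. DESeq2 called 15 and edgeR none. The count was 13 without saline library 3, 11 without control LPS library 1, and 0 without saline library 1 or 2, control LPS library 3 or any 1 cKO LPS library.

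In iron and heme handling 4 of 16 rose: Lcn2, Cp, the ferritin heavy chain Fth1 (1.19) and the iron importer Slc11a2 (0.96). This count was 2 without cKO LPS library 1 or 3, control LPS library 3 or any 1 saline library, and 7 in the 6 libraries alone with the block. Oxidative burst, arginine and itaconate genes rose in 5 of 20 cases. Cybb, the catalytic subunit of the phagocyte NADPH oxidase, went from 668, 421 and 966 normalized counts in saline to 5443, 5485 and 12583 in cKO LPS (log2 fold change 3.48, adjusted p = 0.00383). Acod1, which makes itaconate, was at 27.6, 20.8 and 12.8 normalized counts in saline and 373, 653 and 1707 in cKO LPS (5.19, or 4.59 without cKO LPS library 3), and Ptgs2, the inducible cyclooxygenase, at 618, 608 and 491 normalized counts in saline and 4633, 2559 and 5064 in cKO LPS (2.78). Their count was 3 without cKO LPS library 2 or 3, control LPS library 3 or saline library 1 or 2, and in the 6 libraries alone with the block 1 member fell. In the glucocorticoid list Hsd11b1, which regenerates active glucocorticoid, rose from 2.96, 2.77 and 0 normalized counts in saline to 115, 84.8 and 188 in cKO LPS (5.65, or 5.00 without saline library 3, adjusted p = 0.00103), and Errfi1, an inhibitor of the epidermal growth factor receptor, fell from 3194, 2922 and 2779 normalized counts in saline to 1449, 1695 and 1231 in cKO LPS (-1.03). Both held under all 19 alternatives, and the other 12 members were not called. Over all tested genes 5.41% were called higher and 1.41% lower.

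**Figure D3:**
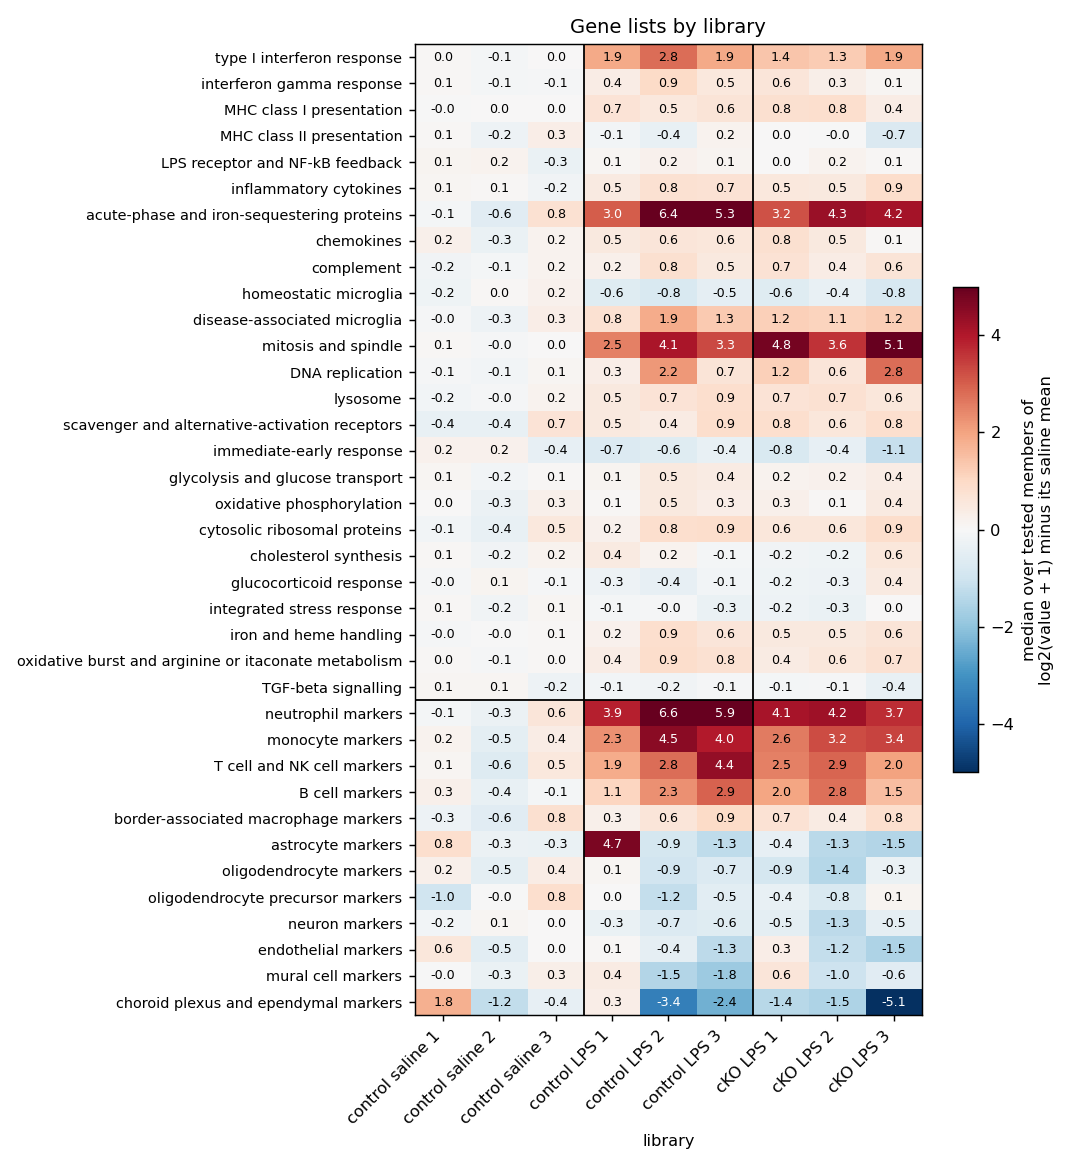
Rows are gene lists (pathways above the line, cell type markers below) and columns the 9 libraries; each cell gives the median over the list's tested members of log2(normalized counts + 1) minus that gene's mean over the saline libraries. The mitosis row reads 4.8, 3.6 and 5.1 in the cKO LPS libraries, the neutrophil row 4.1, 4.2 and 3.7, and the astrocyte row 4.7 in control LPS library 1 alone.

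Markers of blood cells moved with the groups. Neutrophil markers were called higher in 13 of 19 cases at a median of 4.001, and their summed level was 29071 to 49232 normalized counts in saline and 79302 to 100999 in cKO LPS, with Csf3r, which was not called (0.56), the largest contributor in each library. S100a8, a subunit of the granulocyte protein calprotectin, was at 117, 127 and 257 normalized counts in saline and 2156, 4969 and 4630.0 in cKO LPS (log2 fold change 4.54). Ly6g, the surface marker of mouse neutrophils, had 0, 2.77 and 6.42 normalized counts in saline and 62.7, 126 and 64.5 in cKO LPS, and the granule protease gene Prtn3 was at 1.97, 0 and 0 normalized counts in saline and 60.5, 24.5 and 17.8 in cKO LPS. Mpo, Stfa1, Stfa2 and Stfa3 had no read in saline. Without cKO LPS library 2 the count was 6, without saline library 1 it was 8 and without saline library 2 it was 7. Monocyte markers rose in 9 of 14 cases at a median of 3.12 (sums of 29870 to 55311 and 80697 to 83831), with Ms4a4c at 33.6, 29.1 and 64.2 normalized counts in saline and 366, 403 and 708 in cKO LPS and Itga4 at 272, 269 and 327 normalized counts in saline and 1478, 1713 and 2309 in cKO LPS. Plac8 rose by 4.16, and Ccr2, which brings monocytes to tissue, was at 0.44 and not called. The monocyte list also holds Cd177 as well as Hp and Chil3, given above with the acute-phase list, so its count is not of genes particular to monocytes.

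Lymphocyte markers rose from low levels. Of 10 tested T and NK cell markers 5 rose at a median of 2.52 (sums of 255 to 587 and 1171 to 1942), all of them genes of cytotoxic lymphocytes: Prf1, Gzma, Gzmb, Nkg7 and Il2rb. Perforin (Prf1) was at 18.8, 19.4 and 19.3 normalized counts in saline and 135, 204 and 120.1 in cKO LPS, granzyme B (Gzmb) at 4.08 and the granule protein gene Nkg7 at 2.77 on the log2 scale. The T cell receptor complex genes Cd3e, Cd3d, Cd3g, Trac and Trbc2 and the co-receptor gene Cd8a were not tested. Of 8 B cell markers 3 rose, among them Cd22 (2.34) and Ms4a1 (2.86). The T and NK count was 1 without cKO LPS library 1 or 2 or saline library 2, and 2 without cKO LPS library 3, control LPS library 2 or saline library 1. It was 2 with edgeR and 3 after quantile normalization. Prf1 lost its call without cKO LPS library 2, Gzmb without cKO LPS library 1 or saline library 2 or 3, and Ms4a1 without any 1 cKO LPS library or saline library 2 or 3. Nkg7 lost it without any 1 cKO LPS library, control LPS library 2 or saline library 1 or 2, and both Nkg7 and Ms4a1 lost it with edgeR and after quantile normalization. With the replicate number as a block over all 9 libraries Ms4a1 was not called. The B cell count was 1 without cKO LPS library 1 or 2 or saline library 2 or 3. Lcn2, Saa3, the stefins, Clec4e, Cybb, Lrg1, Hp and Chil3 are also expressed by neutrophils or monocytes, and the part of these cells in the rises given above was not tested.

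Markers of cells outside the blood lineage had negative medians and gave no call over all 9 libraries: 0 of 15 astrocyte (median -1.002), 11 oligodendrocyte (-0.76), 10 oligodendrocyte precursor (-0.30), 12 neuron (-0.70), 12 endothelial (-0.78), 10 mural (-0.50) and 10 choroid plexus and ependymal markers (-2.71). With the replicate number as a block in the 6 libraries compared, 9 astrocyte, 9 oligodendrocyte, 4 choroid plexus and ependymal, 2 precursor, 1 neuron and 1 endothelial marker were called lower. The block over all 9 libraries called 2 oligodendrocyte, 1 endothelial and 1 choroid plexus and ependymal marker lower. In the 6 libraries without the block 2 astrocyte markers were called lower, and DESeq2 called 1 oligodendrocyte and 1 choroid plexus and ependymal marker. Without control LPS library 1, 3 astrocyte markers and 1 oligodendrocyte marker were called lower. An oligodendrocyte marker was also called without saline library 2 or after quantile normalization, and an endothelial marker without cKO LPS library 1. The precursor median was 0.21 without saline library 3. Neither of 2 erythroid markers (median -1.37) nor any of 5 sex-linked genes (3.62) was called. Choroid plexus and ependymal markers summed to 232768, 20701 and 50111 in the saline libraries and 21170, 20552 and 2711 in cKO LPS, so saline library 1 was the highest. Ttr, the transthyretin of choroid plexus, was at 166400.0, 12155 and 35918 normalized counts in saline and 14164, 13944 and 1158 in cKO LPS (log2 fold change -2.77, adjusted p = 0.25). Border-associated macrophage markers, of the meninges and vessels, had 1 call in 10, the folate receptor Folr2 (1.62). Its call was lost without cKO LPS library 1 or 2 or saline library 1 or 2. Of these markers 0 were called without cKO LPS library 1 or 2 or saline library 1, 2 were called without control LPS library 1 or 2, with the replicate block, in the 6 libraries alone or at a mean of at least 50, and 3 without saline library 3, with DESeq2 or in the 6 libraries alone with the block.

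The control LPS libraries place these changes beside those of LPS alone. Control LPS against control saline, which shares the saline libraries with the comparison above, called 929 genes (5.6%), 776 higher (4.68%) and 153 lower (0.923%), or 1826, 387 and 374 without control LPS library 1, 2 or 3 and 499, 418 and 562 without saline library 1, 2 or 3. The test of genotype at 1 treatment, cKO LPS against control LPS, called 0 of 16575 genes (0%) with limma at a lowest adjusted p of 0.9999, and 263 had an unadjusted p under 0.05. EdgeR's quasi-likelihood test called 0 as well, and DESeq2 called 4: Gm7335 and Arl5a higher and Gdf15 and Usp18 lower in cKO LPS. The limma count was also 0 without control LPS library 1, where 639 genes had an unadjusted p under 0.05, and 1 without saline library 3. The low count of limma and edgeR does not show that the 2 LPS groups were alike.

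Side by side, the medians of the type I interferon list were 1.73 in cKO LPS and 2.29 in control LPS, each against saline, and 2.42 in control LPS without its library 1. Mx1 was at 1494, 2017 and 1425 in control LPS and at 1120.0, 1102 and 1180.4 in cKO LPS, and the difference of -0.52 was not called (adjusted p = 0.9999). Usp18, an interferon-induced protease that limits interferon signalling, was at 803, 1118 and 828 in control LPS against 459, 432 and 558 in cKO LPS. Medians of the mitosis list were 4.50 and 3.34, or 3.75 without control LPS library 1. Mki67 was at 1393, 5091 and 3122 in control LPS, and the difference of 1.42 was not called. All 27 mitosis genes were higher in cKO LPS than in control LPS, by 1.05 to 1.45 on the log2 scale, or by 0.63 to 1.02 without control LPS library 1. The median over all tested genes was -0.02. None of the 27 was called between these groups, and their libraries overlapped. The list summed to 7980, 25686.5 and 15428 in control LPS and to 43245, 19618 and 51198 in cKO LPS. Against saline, control LPS had 26 of the 27 called higher, or 27 without its library 1.

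Neutrophil markers had medians of 4.001 and 5.44 (6.23 without control LPS library 1), monocyte markers 3.12 and 3.77 (4.29) and T and NK cell markers 2.52 and 3.05 (3.55). Between cKO LPS and control LPS the 19 neutrophil markers differed in both directions, from -3.06 to 1.85 at a median of -1.21, none called. Ngp, a neutrophil granule protein, was at 1691, 6764 and 5246 normalized counts in control LPS, against 948, 1296 and 306 in cKO LPS. Lcn2, also in the list, went the other way, with a difference of 1.497, or 0.533 without control LPS library 1. Prtn3 was at 99.4, 126 and 97.5 in control LPS, and cKO LPS differed from control LPS by -1.81, not called (adjusted p = 0.9999). For the disease-associated genes the medians were 1.19 and 1.33 (1.61 without control LPS library 1) and for complement 0.56 and 0.51 (0.65). For the lysosome they were 0.58 and 0.59 (0.78) and for resting microglia -0.58 and -0.60 (-0.59). Hsd11b1 was at 366, 401 and 369.7 in control LPS, a difference of -1.62, and Ddit3 at 1516, 1674 and 1877, a difference of -0.48, neither called.

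**Figure D4:**
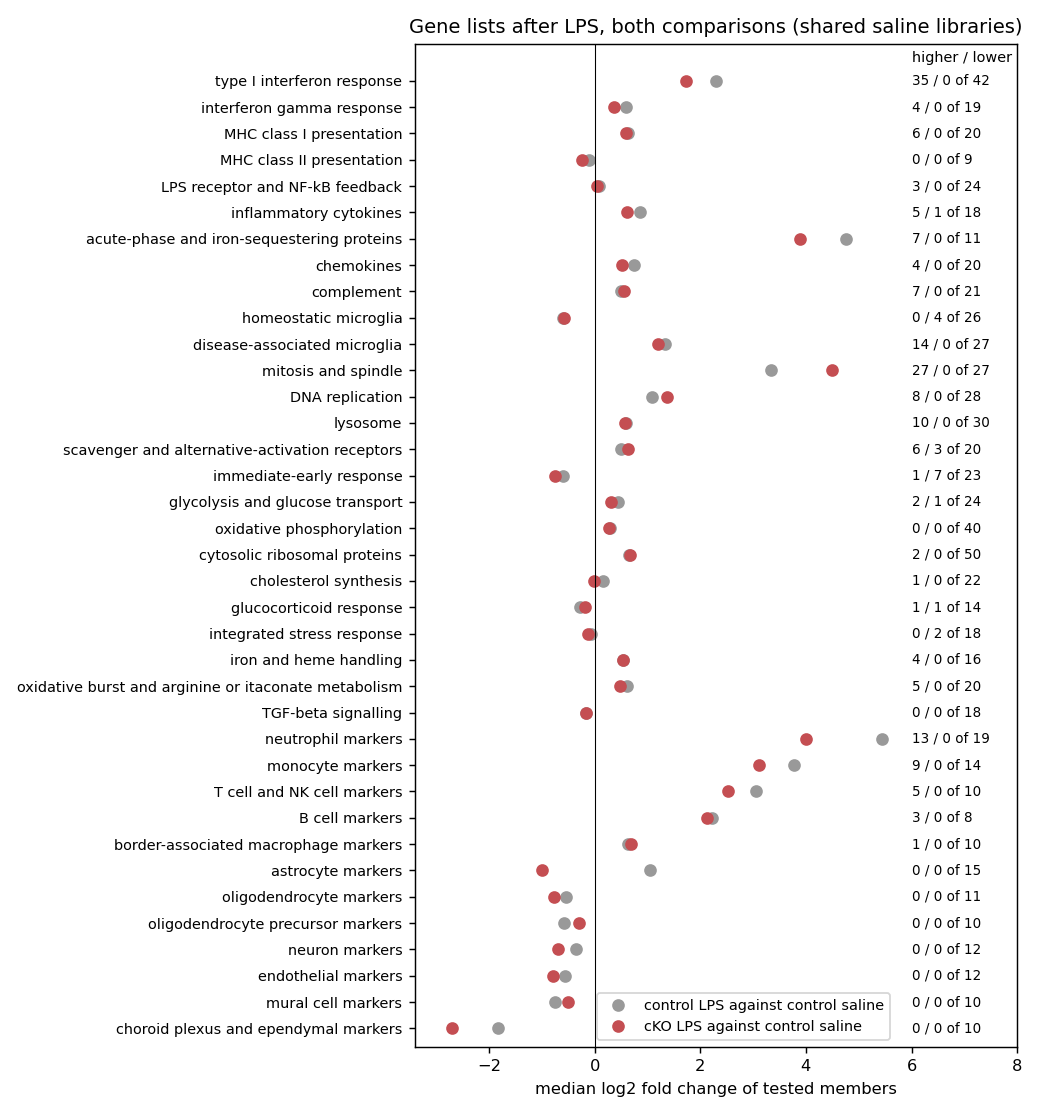
Each row is a gene list; the horizontal axis is the median log2 fold change of its tested members against control saline, in cKO LPS (red) and control LPS (grey), with the members called higher and lower in cKO LPS at the right. The saline libraries are shared by both points; the mitosis points lie at 4.50 and 3.34 and the neutrophil points at 4.001 and 5.44.

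Some of the genes that rose lay near one another on the chromosomes. Taking runs of at least 4 genes called higher with starts no more than 200000 bases apart, 107 of the 897 (11.9%) lay in 20 clusters. How many such runs genes spread at random would form was not tested, and tested genes that were not called can lie between those that were. On chromosome 1, 9 of 11 tested genes of the Ifi200 family, DNA sensors induced by interferon, rose between 173468485 and 174031755 (median 2.71). In the stefin cluster of chromosome 16, 6 of 7 rose (median 6.85), and around Ifit1 to Ifit3 on chromosome 19, 6 of 7 (2.07). All 6 tested genes of the paired immunoglobulin-like receptor cluster on chromosome 7 rose (median 3.73), from Pirb to Lilra6.

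Other clusters were a span of Schlafen genes on chromosome 11 (5 of 9 tested genes, the 5 being Slfn1, Slfn2, Slfn4, Slfn5 and Slfn9), a span on chromosome 7 with Ifitm1, Ifitm2, Ifitm3 and Ifitm6, of viral entry restriction, beside Pgghg (5 of 6), the Oas genes on chromosome 5 (4 of 6) and the Phf11 genes on chromosome 14 (4 of 4). The Apoe region of chromosome 7 held 6 of 9, with the apolipoprotein genes Apoc1 and Apoc2 beside Apoe. The widest was the MHC region of chromosome 17, from 34398767 to 35516837, where 11 of 68 rose, among them C4b, Cfb, H2-D1 and H2-Q7. Members of such families share sequence, so part of their reads may have been assigned to the wrong copy, and whether counting used the strand is not given in the sources used here.

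**Figure D5:**
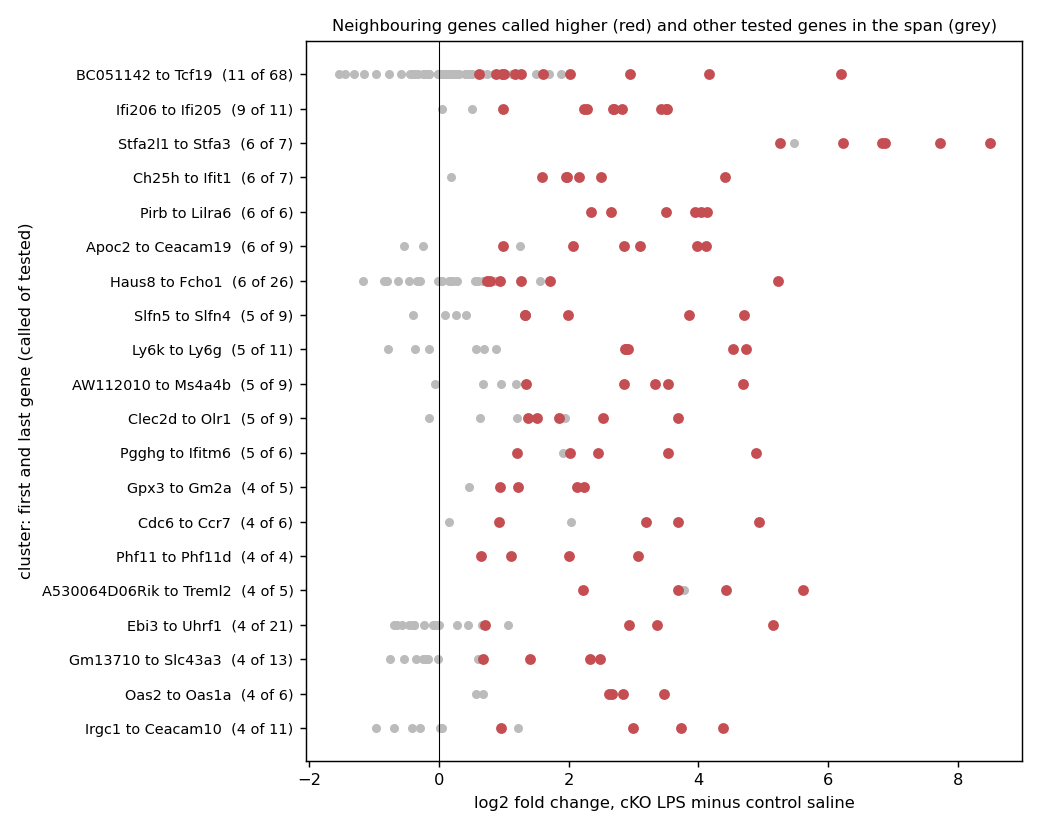
Each row is 1 of the 20 clusters of neighbouring genes called higher, labelled by its first and last gene and by the number called of the number tested in its span; points give log2 fold changes in cKO LPS against control saline, red where called and grey where not. The stefin cluster lies highest, with red points above 5, and in the Pirb to Lilra6 cluster all 6 points are red.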

How the data were processed

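RNA was sequenced from CD11b-sorted brain cells in 9 libraries, 3 per group. The deposited table holds normalized read counts per gene (a signal in read units), which the authors made by dividing counts by a size factor per library. Every value gave a whole read number to within 0.01 when multiplied back, so counts were recovered from the deposited signal. The submitters' processing notes name STAR, RSEM, featureCounts, Trimmomatic, FastQC, MultiQC 1.12, DESeq2, edgeR 3.30.3 and the build mm10, without their roles. The authors' deposited tables of comparisons give log2 fold changes and p-values, raw and adjusted.

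Values were tested as log2(value + 1) with limma 3.58.1 in R 4.3.3 (trended variance, 6 residual degrees of freedom) over all 9 libraries, for genes with a mean of at least 10, with Benjamini-Hochberg adjustment per comparison at 0.05. Fold changes on this scale understate those of low genes. Alternatives were edgeR 4.0.16 (quasi-likelihood) and DESeq2 1.42.0 on the recovered counts, TMM factors, quantile normalization, a pseudocount of 5, a mean of at least 50, no filter, the 6 libraries alone, the replicate number as a block and each library left out. Libraries with the same number deviated together between saline and cKO LPS (correlations over genes of 0.387, 0.242 and 0.35). Control LPS library 2 did not follow, at 0.079 with saline library 2, -0.066 with cKO LPS library 2 and 0.313 with cKO LPS library 3. The numbers were taken to pair the libraries only in the settings with a replicate block. The source of the pairing is these data, and the labels do not give it. Counts with the block therefore rest on a pairing read from the same values, and are no independent check. Ratios against near-silent groups used recovered reads, pooled over the libraries of each group, with exact 95% intervals. Because of the pooling these cover counting error only and leave out the spread between libraries. The reads carry no molecular identifiers, so even the counting error may be understated. No library pair agreed within sampling noise.

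Genes were named by rule: the 8 largest rises and falls among called genes with a mean of at least 50, no overlap and no clone-type symbol, up to 3 called members with the smallest adjusted p per list (or 2 with the highest mean), and a panel of 13 genes. Other genes were named after their values were seen, and the values of some genes are not reported here. The members and the 39 gene lists were chosen with earlier results of these data known. On simulated counts for this comparison over 16575 genes, 38 of 50 genes raised 4-fold, 18 of 50 raised 2-fold, 32 of 50 lowered to 0.25 and 5 of 50 lowered to 0.5 were called, with 2 of 16375 unchanged genes. The simulated libraries were drawn independently, with equal group means apart from the changed genes. None stood apart from its group or deviated with another, as real libraries did. These shares are therefore not error rates of the real comparison. Promoters came from RefSeq (GRCm38.p6). Figures were drawn with matplotlib 3.10.9 in Python 3.11.15.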

Additional observations from a re-analysis of the deposited data

How the results depend on the processing

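For cKO LPS against control saline, the 1131 calls became 2100 with DESeq2, of which 1123 were among the 1131, and 2443 in the 6 libraries alone with the replicate block, which was added after the data were seen. With the replicate block over all 9 libraries the count was 1286. The other settings gave 914 (edgeR) to 1427 (the 6 libraries alone), and leaving out 1 library gave 490 to 1656. After quantile normalization 69.8% of the calls were higher, against 79.3%. For control LPS against control saline, DESeq2 called 1783 genes, the replicate block 926, and leaving out 1 library gave 374 to 1826. For cKO LPS against control LPS, DESeq2 called 4, the replicate block 0, and leaving out 1 library 0 to 1. Among the genes chosen by the naming rule, the replicate block over all 9 libraries added 4 calls, Tnf, Flt1 and Enpp2 among them, ended that of Ms4a1 and changed no other. EdgeR ended the calls of Stfa2, Stfa3, Ccdc162, Eps8l1, Rplp0, Rpsa, Mvd, Nkg7 and Ms4a1, and quantile normalization those of Irak3, Mvd, Nkg7 and Ms4a1. None of the results changed direction while called. Over the named genes, 2007 values kept their side of the threshold, 153 lost their call and 19 gained one. Why counts moved was not tested. With saline libraries of 10845937 to 34356433 reads, genes with under 3 saline reads have ratios that counting error alone leaves wide.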
